A study of Drosophila melanogaster with 2 samples.

Results

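The 10 genes described here are the core of the Wingless and Hedgehog signalling pathways of Drosophila melanogaster: the ligand genes wg and hh, the receptor genes fz, fz2, ptc and smo, the effector genes arm, pan and ci, and the inhibitor gene nkd. They were matched by symbol in the Ensembl annotation of the dm6 build, and all 10 were found among 13945 protein-coding genes of the 6 main chromosome arms. Their chromatin was assayed by ChIP-seq for the transcription factor Hand in whole embryos, pooled male and female, 6 to 24 hours old. By the labels, all embryos came from 1 transgenic line that stably expressed Hand with GFP fused to its C-terminus, and an antibody against GFP was used. There was 1 group of 2 biological replicates, labelled replicate 2 and replicate 3. The samples include no control, and with a single group there was no contrast to test. Whole embryos hold many tissues, and a strong peak in few cells cannot be told apart from a weak peak in many.

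Wingless is a secreted Wnt protein. It binds Frizzled receptors at the cell surface, which stabilises Armadillo, the fly beta-catenin, and Armadillo then joins the DNA-binding factor Pangolin (TCF) on target genes. Hedgehog is a second secreted signal. It binds Patched, which releases the transmembrane protein Smoothened from inhibition and lets the zinc-finger factor Cubitus interruptus activate its targets. Both pathways pattern the segments of the embryo, and Wingless signalling is also known to be needed for the specification of the heart, where Hand, a basic helix-loop-helix factor, is later expressed along with the lymph gland and visceral muscle.

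The sequences under 6 summits are shown only as examples, and their choice does not show how common a word is. They are the strongest peaks of nkd and fz, the peak of the ligand gene hh, the intronic peaks of fz and nkd that hold an E-box, and the weaker peak before the wg start site. Each is the plus strand of the dm6 build, from the RefSeq genome of that build, 50 bp on each side of the summit. Capitals mark matches to any of the words searched on both strands. The E-box CANNTG is bound by the class of factor to which Hand belongs, and its form CATCTG was also counted alone, so the pair overlap. The TCF words were CTTTGAA with its close variants CTTTGAT along with CTTTGTA as well as CTTTGTT. The Ci words were CCACCCA together with GACCACC. The GATA word was GATAA, while the forkhead word was TAAACA.
nkd, 119 bp before the start site, chr3L:19045518-19045618: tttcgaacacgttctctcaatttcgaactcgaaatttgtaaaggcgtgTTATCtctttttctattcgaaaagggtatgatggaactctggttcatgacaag
fz, 1756 bp before the start site, chr3L:14272537-14272637: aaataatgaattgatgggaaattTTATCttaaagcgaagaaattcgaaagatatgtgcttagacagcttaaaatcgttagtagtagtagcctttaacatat
hh, first intron, chr3R:23139056-23139156: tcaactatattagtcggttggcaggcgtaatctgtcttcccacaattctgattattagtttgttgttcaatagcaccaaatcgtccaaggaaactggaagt
fz, first intron, chr3L:14304021-14304121: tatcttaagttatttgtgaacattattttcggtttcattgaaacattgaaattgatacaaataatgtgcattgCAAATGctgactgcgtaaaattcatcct
nkd, second intron, chr3L:19009587-19009687: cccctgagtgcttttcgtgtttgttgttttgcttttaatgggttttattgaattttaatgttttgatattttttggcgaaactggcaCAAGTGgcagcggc
wg, weaker peak 298 bp before the start site, chr2L:7306811-7306911: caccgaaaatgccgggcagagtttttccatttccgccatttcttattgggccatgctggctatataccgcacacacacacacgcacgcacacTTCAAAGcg
The nkd and fz promoter-side windows each hold 1 GATA word and no E-box, the hh window holds none of the words, and the wg window holds the TCF word CTTTGAA on the minus strand.

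Peaks were ranked in lists of 30000, 1 for either replicate and 1 for both pooled. The authors' reproducibility comparison kept 3310 thresholded peaks, which were the strongest of the pooled list. The full pooled list is labelled as peaks and background, the input of that comparison, so a weaker summit may be background. The value given for each peak below is the signal that the authors' peak caller wrote, with no common scale for the lists. A pooled signal has no error, and a ratio of replicate signals also holds their difference in scale. Read depth is unknown. The tagged gene itself had 1 thresholded peak, with a signal of 234 in the pooled list and 171 in replicate 3, while replicate 2 had no summit within 100 bp of it. In the 90 kb around Hand, replicate 2 listed 4 peaks and replicate 3 listed 36, against a mean of 20.2 per 90 kb in each list. Whether replicate 2 carries the tagged construct, as labelled, cannot be told from these peaks. Pooled and thresholded values use that library, so all of them rest on its label. The signals of both replicates are therefore given for each thresholded peak of the 10 genes. The counts of genes with a summit are also given from replicate 3 alone, while location classes, words and counts by pathway or list come from the pooled and thresholded lists only.

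Thresholded Hand-GFP summits lay at 5 of the 10 genes, namely hh, fz, fz2, ptc and nkd. A summit counted for a gene if it fell inside the gene or at most 2 kb outside it. The 5 genes held 11 such summits: fz2 and nkd had 3 each, fz and ptc had 2 each and hh had 1. The 3 effector genes arm, pan and ci had none, and neither did the ligand gene wg or the receptor gene smo. By pathway, 3 of 6 Wingless genes held 8 summits and 2 of 4 Hedgehog genes held 3. Among all 13945 genes, 25.7% had a thresholded summit by the same rule. Gene bodies alone gave the same 5 genes, beside 10.2% of all genes, and a 5 kb limit gave 7, with smo and pan added, beside 37.3%. By nearest start site 5 of the 10 genes had a summit, beside 16% of all genes. Counting any base of a peak gave 6, with pan added, beside 26.5%, and the 1655 strongest thresholded peaks gave 2, fz and nkd, beside 15.4%.

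**Figure D1:**
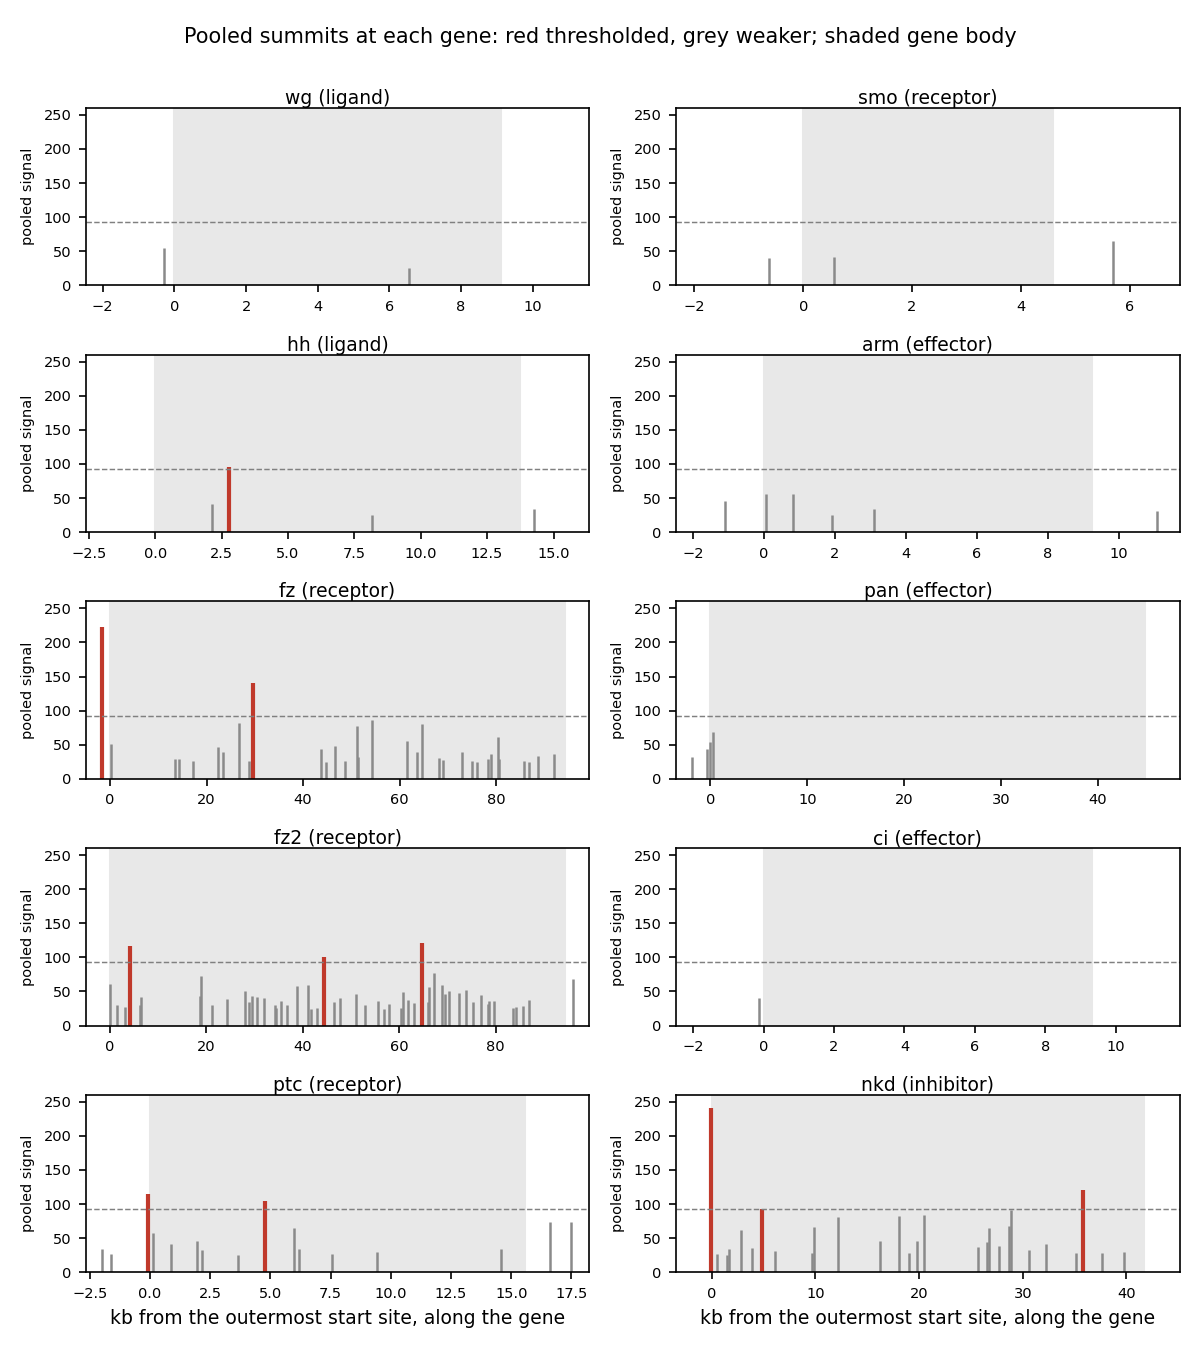
Pooled summits at each of the 10 genes. The x axis is the distance in kb from the outermost start site, running along the gene, and the y axis is the pooled peak signal. Red lines are the 11 thresholded summits, grey lines weaker ones, shading the gene body and the dashed line the lowest thresholded signal of 92.5. The 4 pooled summits of pan all lie at its 5' end.

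The share at the pathway genes has to be read against their length, because long genes hold more summits. The 10 genes ranged from 4586 bp (smo) to 94399 bp (fz2). All genes were ranked by length and divided into 10 classes of equal size. In class 10, the longest, 52.2% of genes had a thresholded summit, in class 9 it was 40.6% and in class 8 it was 31.3%. Of the 5 pathway genes in class 10, fz, fz2, ptc and nkd had a summit and pan did not. Of the other 5, only hh did. Applying the share of its own length class to each gene gives 4.55 genes of 10, close to the 5 found. This is a rough guide, because class 10 spans 14627 to 1965857 bp. It also takes no account of the arm, and pan and ci lie on arm 4, where 12.5% of genes had a thresholded summit.

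**Figure D2:**
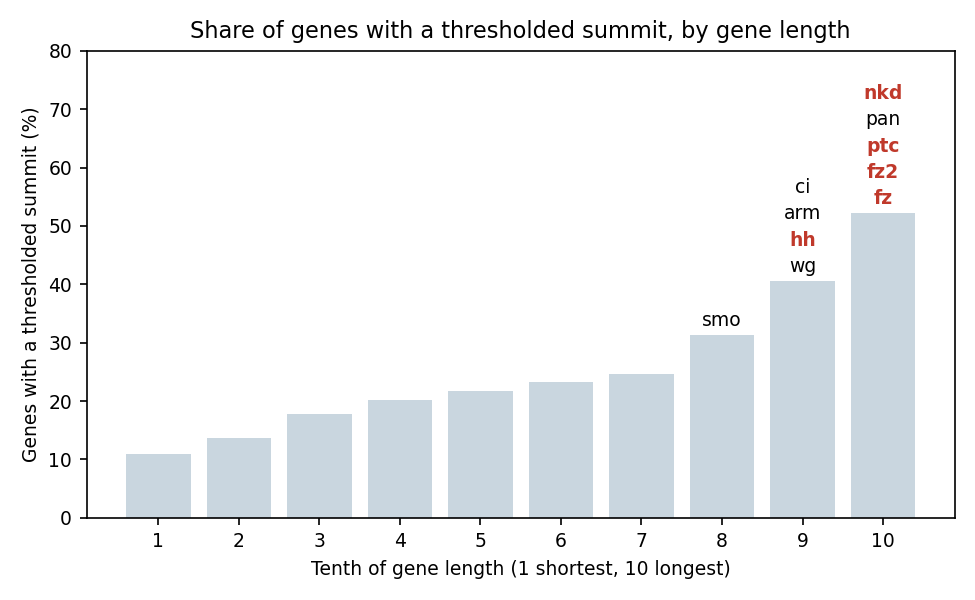
Share of protein-coding genes with a thresholded summit, by length class (y axis in percent, x axis from class 1, the shortest, to class 10, the longest). Gene names stand above their own class, in bold red where the gene had a thresholded summit. The share rises from 11% in class 1 to 52.2% in class 10, where 4 of the 5 pathway genes had a summit.

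The ligand genes differed from each other. hh (FBgn0004644, 3R 23128169-23141906, minus strand), which encodes the Hedgehog signal, had 1 thresholded peak at 3R 23138888-23139323. Its summit lay in intron 1 of 2, 2800 bp inside the gene, with a pooled signal of 95.2 and rank 3145 of 3310. The signal there was 23.4 in replicate 2 and 74.9 in replicate 3. In replicate 2 that peak ranked only 8623 with a q-value of 0.239, so the hh peak rests mainly on replicate 3, where it ranked 2257. A weaker pooled summit of signal 41.4 lay in the same intron, 2134 bp from the start site.

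wg (FBgn0284084, 2L 7307159-7316265, plus strand) had no thresholded summit, and the nearest one lay 17161 bp past its 3' end. That peak, of signal 114, was 288 bp before the start site of the neighbouring Wnt gene Wnt6. The pooled list held 2 weaker summits at wg. The stronger had a signal of 55.5 and rank 8128, and it lay 298 bp before the start site. Replicate 2 had a signal of 20.3 at the same place and the nearest replicate 3 summit, of signal 30.4, was 145 bp away. The other, in intron 3, had a pooled signal of 26.0, near the lowest of the list (24.2).

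Of the receptor genes, both Frizzled genes had several peaks. fz (FBgn0001085, 3L 14274343-14368639, plus strand), which encodes a Wingless receptor that also acts in planar cell polarity, had its strongest peak at 3L 14272369-14272804, between genes and 1756 bp before the start site. The pooled signal was 222, rank 684. It was 110.1 in replicate 2 and 117 in replicate 3, a smaller excess in replicate 3 than at most thresholded peaks. In replicate 3 this peak ranked 1039. In replicate 2 this was the peak of rank 369, the highest rank of any peak at the 10 genes. A second fz peak at 3L 14303853-14304288, in intron 1, had a pooled signal of 140.2, and 42.8 in replicate 2 and 95.1 in replicate 3.

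fz2 (FBgn0016797, 3L 19140975-19235373, minus strand), which encodes a second Wingless receptor, had 3 thresholded summits of similar signal. The strongest, at 3L 19170404-19170839, lay in the 5' UTR, 26 bp downstream of an internal start site, and had a signal of 122, with 42.2 in replicate 2 and 70.3 in replicate 3. Next came a peak at 3L 19231097-19231532, 4058 bp inside the longest transcript, with a signal of 117, and 36.7 and 76.3 in replicates 2 and 3. The weakest of them, at 3L 19190722-19191157, was intronic and 20292 bp from any fz2 start site, with a signal of 101, and 37.1 and 66.3 in replicates 2 and 3. At the outermost start site itself a weaker summit lay 1 bp upstream, of pooled signal 60.5. The pooled list held 54 summits over the fz2 window, the most of the 10 genes.

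ptc (FBgn0003892, 2R 8649649-8665223, plus strand) encodes the Hedgehog receptor and is itself a known target of the pathway. Its strongest thresholded peak, at 2R 8649362-8649797, lay at the promoter with the summit 69 bp upstream of the start site. The signal was 115 in the pooled list, 52.9 in replicate 2 and 67.4 in replicate 3. The second peak, at 2R 8654205-8654640 in intron 1 of 5, had 105 in the pooled list, 39.1 in replicate 2 and 68.1 in replicate 3. In the pooled list, summits were densest at ptc among the 10 genes, with 16 or 8.17 per 10 kb of window. The 6 arms, with sequence outside genes included, held 2.24 per 10 kb. Of the 14 weaker ones at ptc, 4 had a summit of both replicates within 100 bp. Replicate 3 alone listed 11 summits at ptc and 28 at nkd, so the pooled ranking need not hold in that list.

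smo (FBgn0003444, 2L 277582-282167, plus strand), which encodes the signal transducer released by Patched, had no thresholded summit. Its strongest weaker peak had a pooled signal of 64.8, with 27.7 in replicate 2 and 33.9 in replicate 3, and lay 1103 bp past its 3' end, nearer to the start site of CG11601. The nearest thresholded summit was 3711 bp past that end, 152 bp from the start site of CG3625, with a signal of 110.5, and replicate 2 had no summit within 100 bp of it.

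All 3 effector genes lacked a thresholded summit, and each had weaker ones at its 5' end. arm (FBgn0000117, X 1891401-1900646, minus strand), the beta-catenin gene, had 6 pooled summits. The 2 strongest, of signal 55.9 and 55.7, lay among its 4 start sites. The first had 46.8 in replicate 3 and no summit within 100 bp in replicate 2, and the second had 34.2 in replicate 2 and 23.4 in replicate 3. The replicates thus ranked these neighbouring positions differently.

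pan (FBgn0085432, 4 69326-114270, plus strand), the TCF gene, is 44945 bp long and had 4 pooled summits, against a median of 9 for genes of length class 10. Its window held 0.817 per 10 kb, above the 0.490 per 10 kb over the whole of arm 4, on which it lies. None of its pooled summits lay more than 0.253 kb past the outermost start site. The strongest had a pooled signal of 68.0, with 15.4 in replicate 2 and 53.9 in replicate 3. A thresholded summit of signal 208 lay 2150 bp upstream, just outside the 2 kb limit and 31 bp from the start site of RpS3A, a ribosomal protein gene. With 5 kb in place of 2 kb this summit counted for pan.

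ci (FBgn0004859, 4 47710-57041, minus strand), the gene of the Hedgehog effector, had the least of the 10. Its 1 pooled summit, 118 bp before the start site, had a signal of 40.7 and rank 13153. Replicate 3 had 27.6 there and replicate 2 had no summit in the whole window. Both ci and pan lie on the small arm 4, where the pooled list held 0.490 summits per 10 kb and 12.5% of 80 genes had a thresholded summit. The ci window held 0.750 pooled summits per 10 kb, also above that of the whole arm.

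The inhibitor gene nkd (FBgn0002945, 3L 19003741-19045449, minus strand) had the strongest peak of all 10 genes. Naked cuticle acts against Wingless signalling inside the cell, and nkd is a known target of that signalling. The peak was narrow, 111 bp at 3L 19045522-19045632, with its summit 119 bp upstream of the only annotated start site. The signal was 240.2 in the pooled list, rank 608 of 3310, and 73.7 in replicate 2 and 148 in replicate 3. A second peak at 3L 19009419-19009854, in intron 2 of 4, had 121 in the pooled list, 39.99 in replicate 2 and 79.2 in replicate 3.

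The weakest thresholded nkd peak, at 3L 19040375-19040810 in intron 1, had a pooled signal of 93.0, just above the lowest thresholded signal of 92.5. Just below it, a weaker nkd summit in the same intron had 90.8. In that intron another 3 weaker summits had signals from 80.7 to 83.6, each with a summit of both replicates within 100 bp.

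**Figure D3:**
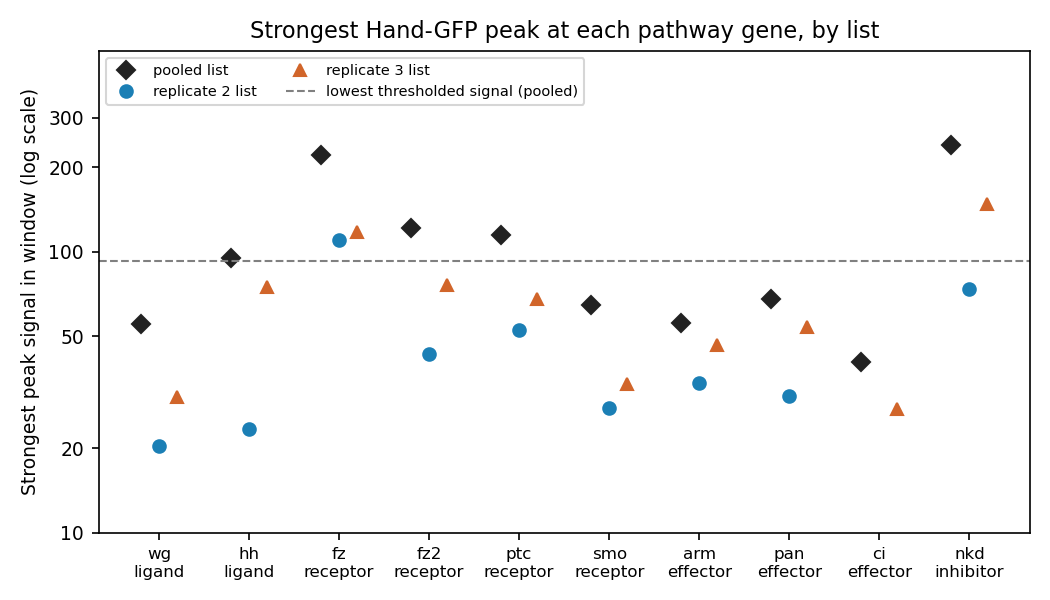
Strongest peak signal in the window of each gene (body plus 2 kb on either side), on a log scale, in the pooled list (black diamonds), replicate 2 (blue circles) and replicate 3 (orange triangles). Lists are not on a common scale. The dashed line is the lowest thresholded signal, 92.5, which only hh, fz, fz2, ptc and nkd pass in the pooled list, and ci has no replicate 2 peak.

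The pathway summits were of moderate strength. Their median pooled signal was 117, against 136 over all 3310 thresholded peaks, and 3 of the 11 were among the 1655 strongest: the nkd promoter peak and both fz peaks. All 11 had a replicate 2 summit within 100 bp and a replicate 3 summit as near, beside 93.9% and 97% of all thresholded summits, or 91.1% for both at once. The list was selected on these replicates, so this presence is no separate evidence. Among the top 3310 peaks of each replicate, 8 of the 11 were found in replicate 2 and 10 in replicate 3.

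From replicate 3 alone, the top 3310 peaks reached the same 5 genes, while 26.3% of all genes had a summit by that list. From replicate 2 alone they reached 4 of the 5, without hh, beside 24.5% of all genes. The signal was higher in replicate 3 at all 11 summits, by a median of 1.79 times, against 1.83 times over 3015 thresholded peaks matched in both lists (quartiles 1.45 and 2.30). The extremes were the fz upstream peak at 1.07 times and the hh peak at 3.20 times, both outside those quartiles.

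**Figure D4:**
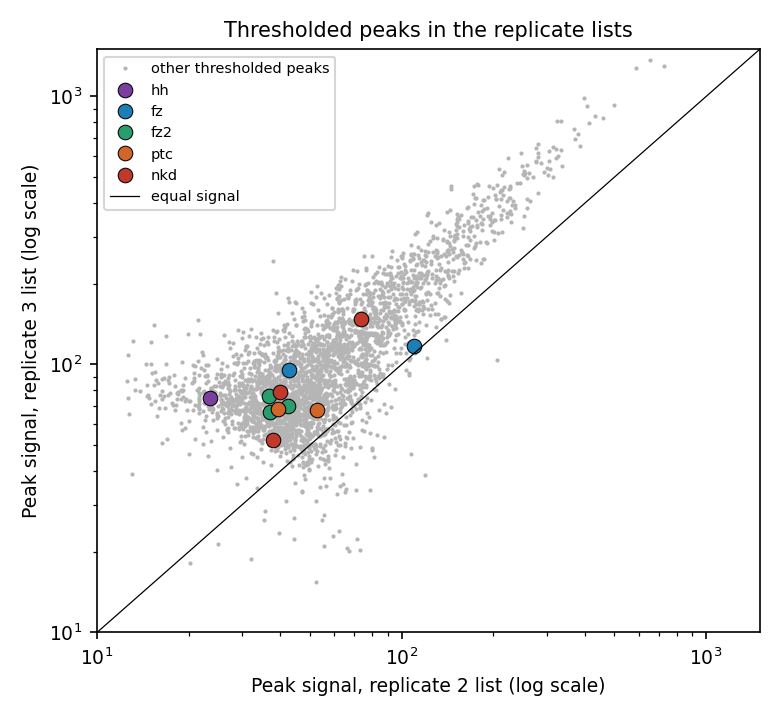
Signal of thresholded peaks in the replicate 2 list (x axis) and the replicate 3 list (y axis), both on log scales, where both lists had a summit within 100 bp. Grey dots are other peaks, coloured circles the 11 summits at hh, fz, fz2, ptc and nkd, and the line marks equal signal. All 11 circles lie above the line, with 1 fz peak nearest to it and the hh peak farthest.

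By location, the pathway summits were more often intronic than the list as a whole. Of the 11, 7 (63.6%) were in introns and 3 (27.3%) were promoter summits, within 500 bp of a start site, at fz2, ptc and nkd. The fz upstream summit was intergenic and none was exonic. Over all thresholded summits, 35.3% were in introns, 49.6% at promoters, 13.7% intergenic and 1.45% exonic. The median distance to the nearest start site was 4058 bp at the pathway genes and 512.5 bp over all. Because 10 of the 11 summits are in genes of length class 10, gene length moves with this comparison, and its part was not tested. No other protein-coding gene had any of the 11 summits in its body or within 2 kb. By nearest start site the intronic fz peak was closest to CG13482 and the intron 2 peak of nkd to SmydA-2, and the other 9 to the pathway gene itself.

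Counting any peak of the full lists, thresholded or weaker, all 10 genes had one in the pooled and replicate 3 lists, beside 74.4% and 74.6% of all genes. In replicate 2 it was 9, beside 76.9%. The pooled list held 141 weaker summits at the 10 genes, of which 108 were at fz, fz2 and nkd. Of the 141, 51 (36.2%) had a summit of both replicates within 100 bp, against 30.1% of all 26690 weaker pooled summits (53.5% for replicate 2 and 63.7% for replicate 3). Another 53 had one in replicate 3 only, 28 in replicate 2 only and 9 in neither. Their median signal was 36.8, near the 35.1 of all weaker pooled summits. Pooled summits numbered 34 at fz, 54 at fz2, 28 at nkd and 16 at ptc, above the median of 9 for genes of length class 10, and 4 at pan, below it. That class spans 14627 to 1965857 bp, so its median is no close match for length. Per 10 kb of window there were 3.46 at fz, 5.49 at fz2, 6.13 at nkd, 8.17 at ptc and 0.817 at pan. The 6 arms together held 2.24 per 10 kb, and arm 4, with pan, 0.490. Those 2 values are over whole arms, with sequence outside genes included, so they are no like measure for gene windows. In class 9, where the median was 4, arm had 6, hh 4, wg 2 and ci 1. smo had 3, the median of class 8.

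The strongest of these weaker peaks had low q-values in the pooled list, but others did not. The pooled q-value was 0.214 at the ci summit, 0.202 at the hh summit of signal 41.4 and 0.619 at the wg intron 3 summit. At fz, intronic summits of signal 86.4, 81.7 and 80.9 had q-values of 0.00200, 0.00301 and 0.00295. Past the 3' end of ptc, summits of signal 74.0 and 73.4 lay 1922 and 1022 bp beyond the gene and near Acsl. At fz2 a summit 1640 bp past the 3' end, near CG14082, had 68.0 in the pooled list and 43.4 in replicate 2, where it was the strongest peak of the whole fz2 window, but only 24.0 in replicate 3.

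Words of the pathways' own factors were not found within 50 bp of the 11 thresholded summits. Neither the TCF words nor the Ci words occurred there, and they occurred at 9.03% and 1.03% of all thresholded summits. At shares this low, absence from only 11 summits says little. CATCTG was also absent (2.66% of all), as was TAAACA (15.7%). CANNTG was found under 3 of the 11, the intronic fz peak, the 5' UTR peak of fz2 and the intron 2 peak of nkd, beside 34.7% of all. GATAA occurred at 4 of 11, beside 23.3% of all, with 3 copies under the intronic ptc peak and 1 each at the fz upstream, nkd promoter and weakest fz2 peaks. The comparison for GATAA turned with the width, from 2 of 11 beside 12.3% of all within 25 bp to 4 of 11 beside 40.2% within 100 bp. Within 100 bp on each side, TCF words occurred at 2 of 11 beside 16.2% of all, and a Ci word at 1 of 11 beside 2.78%. The share of A and T ranged from 36.6% at the ptc promoter to 73.3% at the second fz2 peak, with a median of 62.4% against 66.3% over all thresholded summits.

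Of 56 further genes of the 2 pathways and their targets, 22 (39.3%) had a thresholded summit, beside 25.7% of all genes. They too are long, with 23 in length class 10, and the shares of their own classes add up to 22.3 genes. This sum was not made for each list, so the counts by list below carry no allowance for gene length. Among Wnt reception and extracellular genes 5 of 8 had one, led by the glypican genes dlp (signal 227) and dally (164) and the co-receptor gene arr (128). The 5 include shf (103), a gene better known from Hedgehog signalling. Wnt transduction genes reached 5 of 8, led by the casein kinase gene gish (861, rank 29), the kinase gene sgg (640.1, rank 71) and Apc (123), the latter 2 being genes of the complex that degrades Armadillo. Wnt nuclear genes reached 4 of 6, led by nej (408), which encodes the coactivator CBP, the corepressor gene gro (278) and the kinase gene nmo (145).

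Hedgehog transduction genes reached 3 of 7, led by the receptor kinase gene Gprk2 (856), rdx (339) and the protein kinase A gene Pka-C1 (142). The Gprk2 summit was nearer to the start site of PNPase. Hedgehog release and reception reached 1 of 6, the co-receptor gene ihog (199), whose summit was nearer to the start site of Gas41. Wnt ligands and secretion reached 2 of 8, Wnt5 (118) and Wnt6 (114), and targets of either pathway 2 of 13, Dll (243) and dpp (110). The peaks of gish, sgg, Gprk2, nej, rdx, gro and Dll were thus stronger than the nkd peak. At 8 of the 22 genes the strongest summit was nearer to the start site of another gene, which was CG43121 for dlp, CG32026 for dally, CG43192 for arr, Mgat2 for Axn, CG5793 for slmb and Coq7 for shf, besides Gprk2 and ihog. From replicate 3 alone, 21 of the 56 genes were reached.

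**Figure D5:**
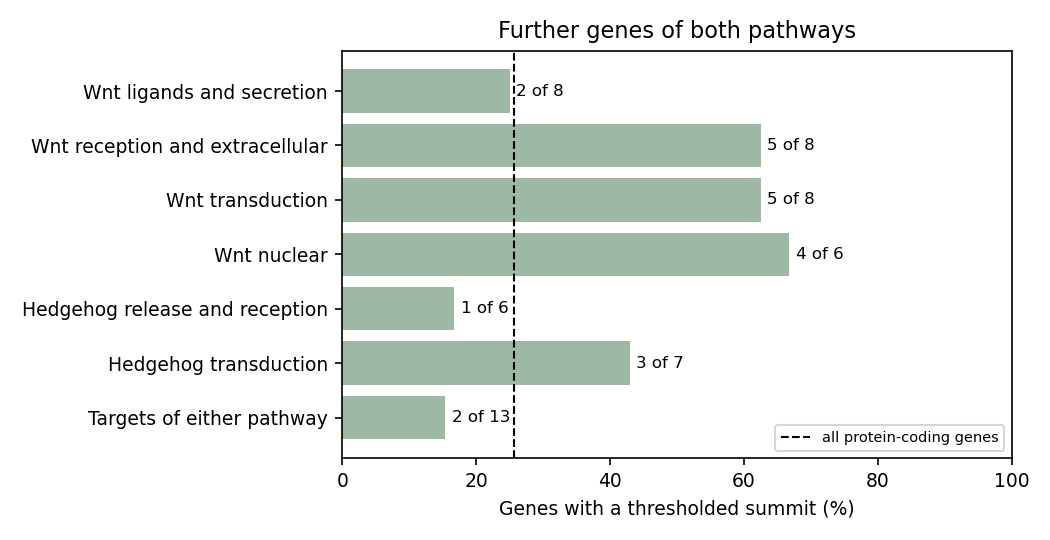
Share of further pathway genes with a thresholded summit, by list, in percent on the x axis, with the number of genes beside each bar. The dashed line is the 25.7% of all protein-coding genes. It is not adjusted for gene length, and each list is small. The 3 lists of Wnt reception, transduction and nuclear genes lie highest, at 62.5%, 62.5% and 66.7%, and targets lowest, at 15.4%.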

How the data were processed

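The deposited data were narrowPeak lists, of which the 4 on the dm6 build were used and those on the dm3 build were not used here. The file listings say that each replicate, and both together, were called against a control alignment shared by them. They also say that an irreproducible discovery rate (IDR) comparison made the thresholded list. Fragments were 200 to 800 bp after sonication, as the labels state. The age of 6 to 24 hours is that of the source label. For the aligner, caller, settings, IDR threshold and depth, the sources used here give nothing. Signal values are as the authors deposited them. The deposited −log10 q-value was turned into a q-value, and 2762 of the 3310 thresholded peaks share its highest value.

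Genes came from Ensembl release 115 and sequence from the RefSeq genome of the same build. All 10 genes had the same start and end in both, and 0 peaks ran past the end of an arm. Replicate values are those of the nearest summit within 100 bp. A summit was a promoter summit if at most 500 bp from a protein-coding start site, and otherwise exonic, intronic or intergenic. The members and gene lists were chosen with earlier results of these data known. Named were all members, the gene nearest to each of their thresholded summits, the 3 strongest genes of each of 7 further lists, and Hand. Other genes near weaker, outside or further-list peaks, and the genes in the closing section, were named after their values were seen. No test across samples was made. Assignment and word search were tested on simulated data and recovered 200 of 200 cases in each check. The alternatives were other windows, match distances and word widths, peak overlap, the 1655 strongest peaks and either replicate alone. Python 3.11.15 and matplotlib 3.10.9 were used.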

Additional observations from a re-analysis of the deposited data

How the results depend on the processing

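With 1 group, counts were compared across settings without a test, and no paired analysis was possible because there is only 1 group. Among the 1655 strongest thresholded peaks, 2 genes (fz and nkd) and 3 summits remained, with 13 further genes, since fewer peaks were used. Leaving out a replicate gave 4 to 5 genes, 13 to 15 summits, 21 further genes in either case and 127 to 148 weaker summits. Gene bodies alone gave the same 5 genes, while 5 kb added smo and pan and any overlapping base added pan. CANNTG occurred at 0 of the 11 summits within 25 bp, beside 18.7% of all thresholded summits, and at 5 within 100 bp, beside 60%. Within 50 bp, 8 of the 11 summits had both replicates. Without flanks the strongest pooled signal was 121 at nkd, 140.2 at fz, 26.0 at wg and 41.7 at smo, and ci had no summit. With 5 kb it was 141 at smo, 208 at pan and 68.2 at ci. No count here has an error, because the thresholded list pools both replicates and depth is unknown.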

Other observations

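The gene wg lies in a run of Wnt genes on arm 2L, between Wnt4 (7255419-7277171) and Wnt6 (7333714-7352542), followed by Wnt10 (7363379-7377528), all dm6. Across this run 1 gene, Wnt6, had a thresholded summit, with a signal of 114 in the pooled list, 57.0 in replicate 2 and 64.5 in replicate 3. Wnt4 had 15 weaker pooled summits of signal up to 55.5, wg had 2, also up to 55.5, and Wnt10 had 0. Of the 13 listed targets of Wingless or Hedgehog signalling, 9 (69.2%) had a pooled summit of any signal, beside 74.4% of all genes. That comparison makes no allowance for gene length. The targets inv, dpp, Dll, vg, Ubx, sr and Ser are in length class 10, where the median was 9 pooled summits, and the others are shorter. Counts ranged from 13 at Ubx, 7 at dpp and 6 at sr to 2 at inv and Dll, 1 at en and eve and 0 at slp1, slp2, bap and vg. Ser and rho had 3 each. The strongest pooled signal was 243 at Dll, 110 at dpp, 64.1 at Ubx, 29.9 at en and 27.4 at inv.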
